A study of Homo sapiens with 26 samples.

Results

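The ATF4 and amino acid response was followed through 33 genes in OCI-Ly7 and SUDHL4, which are established lymphoma cell lines with a germinal centre B cell phenotype. They were taken by name from the 58592 genes that the deposited transcripts add up to, by a list drawn up with earlier results of these data known. The members were ATF4 itself, its partner and feedback factors (ATF3, ATF5, DDIT3, CEBPB, CEBPG, TRIB3, NUPR1), stress effectors (DDIT4, SESN2, CHAC1, STC2, VLDLR), enzymes of amino acid and one-carbon metabolism (ASNS, PHGDH, PSAT1, PSPH, SHMT2, MTHFD2, ALDH1L2, ALDH18A1, PYCR1, CTH, CBS, GPT2), amino acid transporters (SLC7A11, SLC7A5, SLC3A2, SLC7A1, SLC38A2, SLC1A4, SLC1A5) and the tRNA exporter XPOT. In each line 29 of the 33 had enough reads to be tested, and STC2, NUPR1, VLDLR and ALDH1L2 did not.

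All cells, controls included, carried a lentiviral dCas9-BFP-KRAB, a catalytically dead Cas9 fused to a repressor domain and driven by the SFFV promoter, and a lentiviral guide RNA. The guides were directed against POU2AF1, against POU2F2 or, in the controls, against no target. POU2F2 encodes OCT2, a B cell transcription factor that binds the octamer motif, and POU2AF1 encodes OCA-B, its coactivator. After files that repeat each other were merged, OCI-Ly7 had 6 POU2AF1 knockdown, 8 POU2F2 knockdown and 4 control libraries, and SUDHL4 had 1, 2 and 1. The comparisons ask which RNAs change when either factor is lowered. The labels give no number of guides or clones. Nothing in them ties replicates to separate cultures, and the p-values therefore cover just the spread among the libraries at hand, which may be technical.

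ATF4 is a bZIP transcription factor that is made mainly by translational control: when kinases such as GCN2 or PERK phosphorylate the initiation factor eIF2, most translation falls and ATF4 mRNA is translated better. ATF4 then dimerises with C/EBP proteins and binds C/EBP-ATF response elements in genes for amino acid synthesis, import and tRNA charging, and it induces DDIT3 (CHOP), TRIB3 and ATF3, which feed back on it. In B cell lymphoma these genes supply asparagine, serine, cystine and glutamine to growing cells. The level of ATF4 mRNA therefore need not follow the amount or activity of ATF4 protein, which was not measured here.

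The letters of the response element can be read near a RefSeq start in several members. In the RefSeq windows of 250 bases before to 50 after each start (GRCh38.p14), which were at hand for 26 of the 33 members, the letters TGATGNAA on either strand occurred in 8 genes, or 30.8%, against 4.46% of all genes with a window. These were ASNS, ATF3, CEBPG, CHAC1, SLC1A4, SLC1A5, SLC3A2 and SLC7A1. The form TGATGCAA, a subset of these, was found in CEBPG, CHAC1, SLC1A4 and SLC1A5, or 15.4%, against 1.08% of all genes. The octamer ATGCAAAT occurred in 0 of the 26 members, against 2.19% of all genes, and the cyclic AMP response element TGACGTCA in 0, against 2.25%. A match describes letters only and is not shown to be a bound site. The members were listed as genes of this response, so a larger share than in all genes is no independent support. They also had more windows per gene, with 43 for 26 members against 35116 for 27305 genes. The following stretches, read 5′ to 3′ along each gene's own strand, show the matched letters in capitals for members that the results below turn on:
ASNS: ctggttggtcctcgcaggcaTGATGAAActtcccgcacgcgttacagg
CHAC1: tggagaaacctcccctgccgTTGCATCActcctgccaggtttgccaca
SLC1A5: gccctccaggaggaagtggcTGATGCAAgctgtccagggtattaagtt
SLC1A4: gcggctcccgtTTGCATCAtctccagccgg
CEBPG: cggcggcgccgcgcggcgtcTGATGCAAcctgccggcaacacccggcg

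The ASNS stretch lies at chr7:97872449-97872496 on the minus strand, with the match 68 bases before the start. The CHAC1 stretch lies at chr15:40953242-40953289 on the plus strand, with the match on the opposite strand and 209 bases before the start. Those of SLC1A5 (chr19:46784884-46784931, minus strand) and CEBPG (chr19:33374051-33374098, plus strand) hold the match 97 and 42 bases before the start. In SLC1A4 (chr2:64989381-64989410, plus strand) the match lies on the opposite strand, 7 bases before the start. In each case the start is the RefSeq start of that window. Each stretch lies inside the gene's GENCODE span, downstream of the outermost start. That outermost start is at 46788594 for SLC1A5 and at 33373330 for CEBPG. The matches are thus not shown to lie in the main promoter.

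The libraries set limits that bear on every result below. Files held 24959865 to 53155548 estimated reads. POU2AF1 was at 27.3 to 87.9 CPM (a gene's reads scaled to library size, with TMM normalisation) in its OCI-Ly7 knockdown, against 445 to 470 in controls, and at 79.8 against 442 in SUDHL4. POU2F2 was at 55.7 to 148 CPM in its OCI-Ly7 knockdown, against 207 to 407 in controls, and at 43.5 to 55.3 against 330 in SUDHL4. All 7 germinal centre B cell markers exceeded 1 TPM (scaled to transcript length and library size) in every library, while all 8 myeloid and 8 of 9 T and NK cell markers stayed under it. In SUDHL4 the T cell marker CD3E and the fibroblast marker DCN exceeded 1 TPM in every library, and the fibroblast and epithelial markers summed to 82.3 TPM in the POU2AF1 knockdown and 84.9 to 98.2 TPM in the POU2F2 knockdown, against 79.5 TPM in the control. OCI-Ly7 libraries came in batch 1 and batch 2, and batch 2 in series marked s0 to s3. POU2F2 knockdown replicate 3 of OCI-Ly7, labelled batch 2 without a series, lay nearest to the batch 1 control over the members, at a root mean square log2 distance of 0.154, against 0.596 to 1.16 for the batch 2 controls. Its label also gives 48 h. So do those of batch 1 POU2AF1 knockdown replicate 3 and of OCI-Ly7 control 3, a file dropped as a repeat. That file is nearly the sum of the files merged into the batch 1 control, so the control kept here holds reads that also carry a 48 h label. The other labels give no time, and the part of time was not tested. POU2AF1 knockdown replicate 1 had a mitochondrial share of 25.8% of reads, where the other OCI-Ly7 libraries had 7.04% to 13.4%. Batch 1 of OCI-Ly7 has 1 control library, so each batch 1 difference there rests on it.

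Most members were well expressed in control cells of both lines. ATF4 was the most abundant member in OCI-Ly7, at 408, 487, 559 and 552 TPM, against 290 TPM in the SUDHL4 control, where SHMT2, the mitochondrial serine hydroxymethyltransferase, was higher still at 411 TPM. At the low end, ATF3 had 0.277 to 2.16 TPM in OCI-Ly7 and 0.654 TPM in SUDHL4, and SLC7A11, the cystine importer xCT, had 3.10 to 4.26 TPM against 4.78. The 4 untested members had at most 0.241 TPM in any control library.

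**Figure D1:**
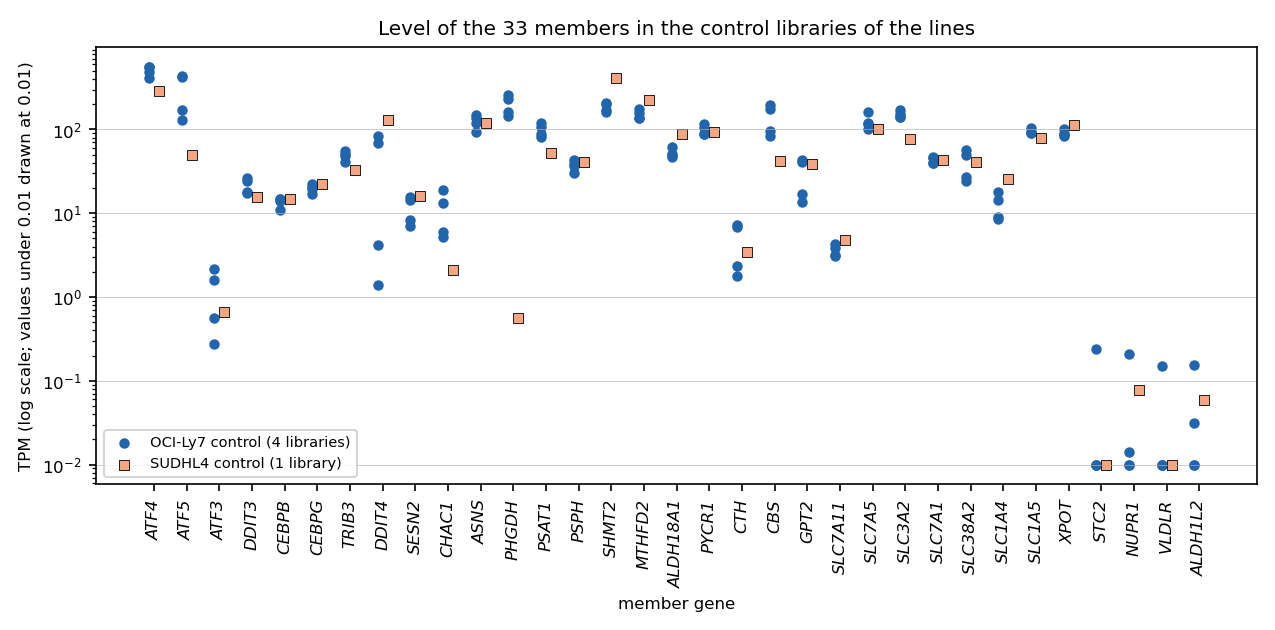
TPM of each of the 33 members (log axis) in the 4 OCI-Ly7 control libraries (circles) and the 1 SUDHL4 control library (squares), ordered by role. PHGDH stands apart, at 146 to 257 TPM in OCI-Ly7 against 0.564 TPM in SUDHL4, and the 4 untested members lie at the bottom of the axis.

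Between the control lines, PHGDH, which opens serine synthesis from glycolysis, showed the widest gap. It had 146, 161, 257 and 233 TPM in OCI-Ly7 and 0.564 TPM in SUDHL4, a log2 difference of 8.05 ± 0.58 (SE; edgeR quasi-likelihood fit over both lines). As it passed the filter on low counts through OCI-Ly7, with 3 to 34 reads in the SUDHL4 libraries, it had to differ, and its value is a description. PSAT1, the next enzyme, was also higher in OCI-Ly7 (log2 0.71 ± 0.23, adjusted p = 0.032 in edgeR), as was SLC3A2, the heavy chain shared by several transporters (0.75 ± 0.27, adjusted p = 0.049). The SLC3A2 call was lost in 15 of 21 fits that left out 1 library (adjusted p of 0.02 to 0.1), and that of PSAT1 in 2 of 21. SHMT2 (-1.40 ± 0.24), MTHFD2, its mitochondrial one-carbon neighbour (-0.78 ± 0.18), ALDH18A1 of proline synthesis (-1.25 ± 0.23) and XPOT (-0.63 ± 0.22) were lower in OCI-Ly7, with edgeR adjusted p of 0.00025, 0.0031, 0.0005 and 0.042. The XPOT call was lost in 10 of 21 such fits. With PHGDH, these were 3 members higher and 4 lower of 29, where 11% of all genes were higher and 12.5% lower. CHAC1 had 5.23, 5.93, 18.8 and 13.3 TPM in OCI-Ly7, against 2.12 TPM in SUDHL4 (2.33 ± 0.93, edgeR adjusted p = 0.079). ATF4 (0.46 ± 0.30), TRIB3 (0.68 ± 0.33), DDIT3 (0.21 ± 0.75) and ASNS (-0.24 ± 0.32) did not pass in this fit either. The outcome depended on how the libraries were blocked. When the fit was blocked by series, ATF4, TRIB3 and CHAC1 passed as higher in OCI-Ly7, while DDIT3 and ASNS again did not. There 9 members were higher and 7 lower, beside 4290 and 4125 of 18918 genes. OCI-Ly7 was kept in IMDM with 20% serum and SUDHL4 in RPMI with 10%, so line and medium cannot be told apart.

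In SUDHL4, most tested members were lower after POU2AF1 knockdown. ASNS, the asparagine synthetase, had 55.9 CPM in the POU2AF1 knockdown library, against 141 in the control, a log2 change of -1.32 ± 0.10 (edgeR adjusted p = 3.7e-12). In bulk RNA, fewer cells with a transcript and less of it per cell cannot be told apart. Of 29 members 22 fell and 4 rose (edgeR adjusted p below 0.05 over all genes), where 18.8% of all genes fell and 18% rose. The median log2 change of the 29 members was -0.57, against 0.01 over all genes tested. PHGDH, counted among those that fell, passed the filter on low counts through the control library alone, so it had to differ. The exceptions were DDIT4, ATF5, SESN2 and DDIT3, which rose, and ATF4, PSPH and SHMT2, which passed in neither direction.

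**Figure D2:**
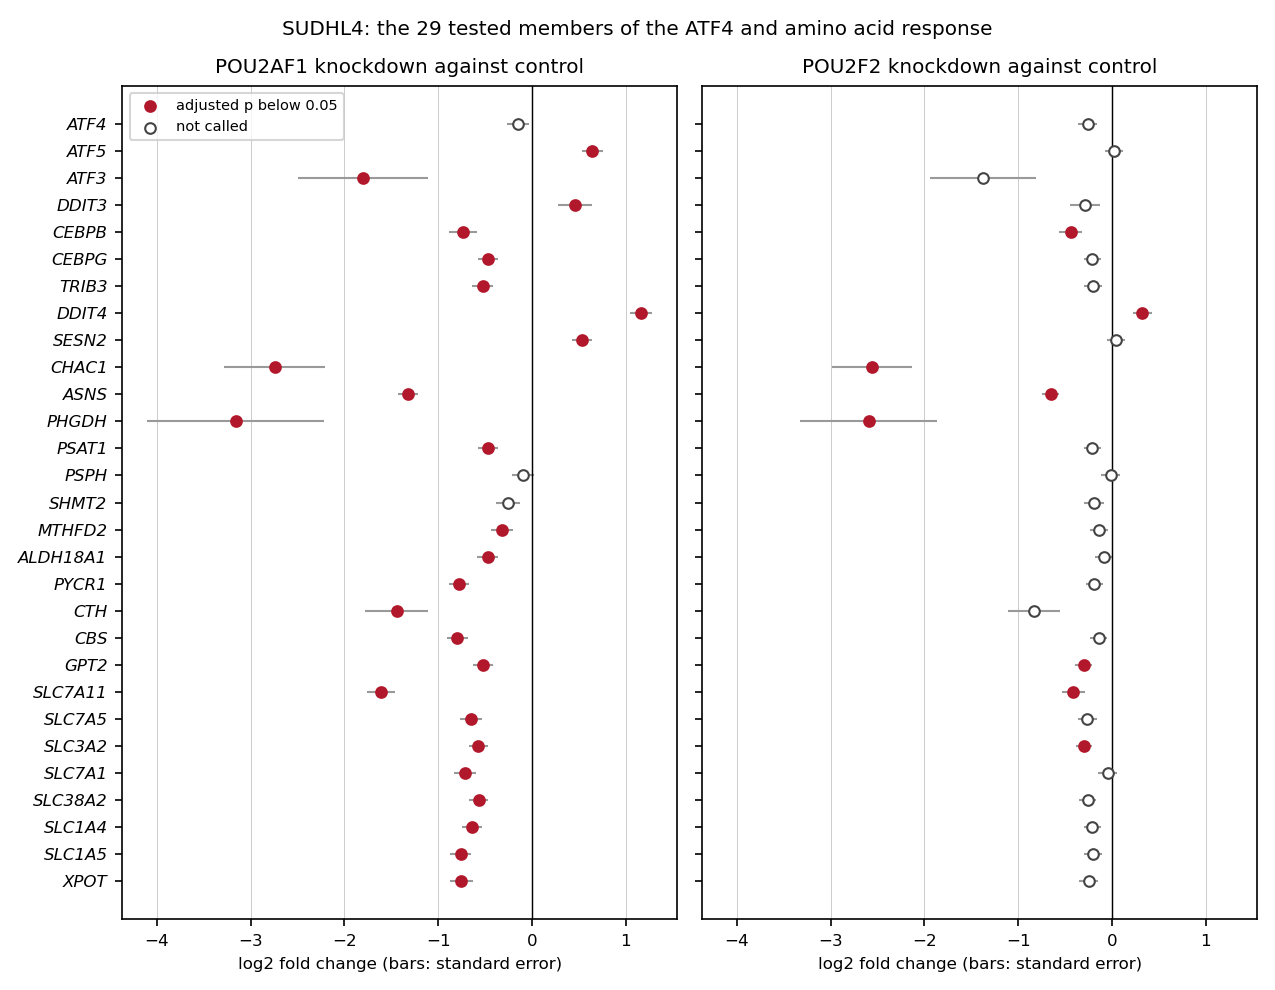
Fitted log2 fold change (horizontal axis) with its standard error for the 29 tested members in SUDHL4, POU2AF1 knockdown against control on the left and POU2F2 knockdown against control on the right; filled points passed the edgeR test. On the left 22 filled points lie below 0 and 4 above it, and on the right 7 lie below 0 and 1 above it.

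These p-values rest on little replication. The SUDHL4 fit has 1 residual degree of freedom, and the lone POU2AF1 knockdown and control libraries are assumed to vary like the POU2F2 knockdown pair. When all 22 libraries were fitted together, which takes the spread mainly from OCI-Ly7, 2 members fell, PHGDH (which had to differ, since it passes the filter only where it is high) and SLC7A11 (adjusted p = 0.039), and 0 rose, against 0.55% and 1.11% of all genes. When that fit also had the series as a block, 10 fell and 0 rose, against 7.38% and 7.04% of all genes. The 10 were ASNS, PHGDH, CHAC1, SLC7A11, SLC7A1, SLC1A5, XPOT, ALDH18A1, PYCR1 and CBS.

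The transcription factors of the response went both ways. ATF4 had 287 CPM in the SUDHL4 POU2AF1 knockdown, against 323 in the control (log2 -0.15 ± 0.12, edgeR adjusted p = 0.37). DDIT3, the pro-apoptotic factor CHOP, had 13.5 against 9.93 CPM (0.46 ± 0.18, adjusted p = 0.047), and ATF5, a paralogue of ATF4, had 118 against 76.5 CPM (0.65 ± 0.11, adjusted p = 6.7e-05). Both lost their call in either fit of all libraries. CEBPB, a dimer partner of ATF4, had 13.6 against 23.0 CPM and CEBPG, another, 45.0 against 62.8 CPM. The pseudokinase TRIB3, which binds and restrains ATF4, had 36.3 against 52.9 CPM (-0.53 ± 0.11, adjusted p = 0.00031). ATF3, a repressor induced by ATF4, was near the detection limit, at 12 reads against 39.

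Among the effectors, CHAC1, which degrades glutathione and is a sensitive ATF4 and CHOP target, fell to 0.341 CPM in the SUDHL4 POU2AF1 knockdown, against 2.33 CPM in the control. That is 18 reads against 112, a log2 change of -2.74 ± 0.54 (edgeR adjusted p = 1e-04). DDIT4 and SESN2, both inhibitors of mTORC1 signalling, went the other way. DDIT4 had 373 CPM in the POU2AF1 knockdown and 169 in the control (1.16 ± 0.11, adjusted p = 5.2e-10), and SESN2 had 67.1 and 46.9 CPM (0.53 ± 0.11, adjusted p = 0.00014). In the fits of all libraries the calls of both were lost.

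Of the enzymes, those of asparagine, proline and cysteine synthesis were lower. PYCR1, the last step to proline, had 74.4 CPM in the SUDHL4 POU2AF1 knockdown and 129 in the control (-0.78 ± 0.10, edgeR adjusted p = 2.8e-07), and ALDH18A1, the first, had 161 and 226 CPM (-0.47 ± 0.11). CTH, which releases cysteine in transsulfuration, had 1.78 and 4.91 CPM (-1.44 ± 0.34). CBS, the enzyme before it, had 36.3 and 63.8 CPM (-0.79 ± 0.11), but its reads can be split with CBSL, a near-identical copy on the same chromosome, so its level is uncertain. GPT2, a mitochondrial alanine aminotransferase, had 66.1 and 96.0 CPM. The serine branch was less even: PSAT1 had 58.2 and 81.6 CPM (-0.47 ± 0.11) and MTHFD2 255 and 321 CPM (-0.32 ± 0.12), while PSPH had 43.1 and 46.6 CPM (-0.09 ± 0.12) and SHMT2 477 and 578 CPM (-0.26 ± 0.13). PHGDH passed the filter on low counts in SUDHL4 through the control library alone, with 4 reads in the POU2AF1 knockdown, 7 and 3 in the POU2F2 knockdown pair and 34 in the control, so it had to differ.

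All 7 transporters fell in the SUDHL4 POU2AF1 knockdown. SLC7A11 had 9.39 CPM against 29 in the control (-1.61 ± 0.15, edgeR adjusted p = 8.7e-11). SLC7A1, a carrier of cationic amino acids, had 161 against 267 CPM (-0.71 ± 0.12), and SLC1A5, the glutamine carrier ASCT2, had 107 against 183 (-0.76 ± 0.11). SLC1A4, its relative for small neutral amino acids, had 59.0 against 93.0 CPM (-0.64 ± 0.10). SLC38A2, the sodium-coupled carrier SNAT2, had 64.4 against 96.7 CPM (-0.57 ± 0.10). The leucine carrier SLC7A5 had 246 against 391 CPM, its heavy chain SLC3A2 had 82.1 against 124 CPM, and XPOT, the tRNA exporter, had 229 against 390 CPM (-0.75 ± 0.12).

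POU2F2 knockdown in SUDHL4 was set against the same control library, and ASNS and CHAC1 again fell. ASNS had 86.3 and 89.4 CPM in the POU2F2 knockdown libraries, against 141 in the control (log2 -0.65 ± 0.09, edgeR adjusted p = 2e-06). CHAC1 had 0.421 and 0.346 CPM, against 2.33 (-2.56 ± 0.43, adjusted p = 7.5e-05). In total 7 members fell, namely ASNS, CHAC1, PHGDH, SLC7A11, CEBPB, GPT2 and SLC3A2, and DDIT4 rose (0.32 ± 0.10), where 2.56% of all genes fell and 4.79% rose. The median log2 change of the members was -0.21, against 0.01 over all genes. PHGDH, counted among those that fell, passed the filter on low counts through the control library alone, so its fall is no support.

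ATF4 was not among them, with 285 and 242 CPM in the POU2F2 knockdown, against 323 (-0.26 ± 0.10, edgeR adjusted p = 0.14). DDIT3 had 8.26 and 7.64 CPM, against 9.93 (-0.29 ± 0.16), where the POU2AF1 knockdown had 13.5. SLC7A11 had 20.3 and 22.4 CPM, against 29 (-0.41 ± 0.12), and SLC7A1 had 267 and 238 CPM, against 267 (-0.05 ± 0.10). CEBPB had 16 and 17.1 CPM, against 23.0 (-0.44 ± 0.12), and TRIB3 had 47.0 and 42.8 CPM, against 52.9 (-0.21 ± 0.10, edgeR adjusted p = 0.23). GPT2 (-0.30 ± 0.09) and SLC3A2 (-0.30 ± 0.09) were just past the threshold, with edgeR adjusted p of 0.027 and 0.033. In the fit of all libraries 0 members fell and 0 rose, where 8 and 10 genes in all did (0.0423% and 0.0529%). There 3 members had an unadjusted p under 0.05, as did 557 of 18918 genes. In DESeq2 on SUDHL4 alone ASNS had a log2 change of -0.66. With the series as a block the 1 member lower was PHGDH, which reached the filter only through libraries where it is high and is no support, and 0 rose, against 0.127% and 0.518% of all genes. Both knockdowns share the single control, so the values stand side by side and their likeness is no separate evidence.

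Other measures moved with the SUDHL4 knockdowns. The summed level of the 7 B cell markers was 3270 TPM in the POU2AF1 knockdown and 2500 to 2590 TPM in the POU2F2 knockdown, against 2040 TPM in the control. Mitochondrially encoded genes took 12.8% of reads in the POU2AF1 knockdown and 10.3% to 14% in the POU2F2 knockdown, against 9.76% in the control. Their part in the result was not tested, and a lone control library and the knockdown effect cannot be told apart.

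**Figure D3:**
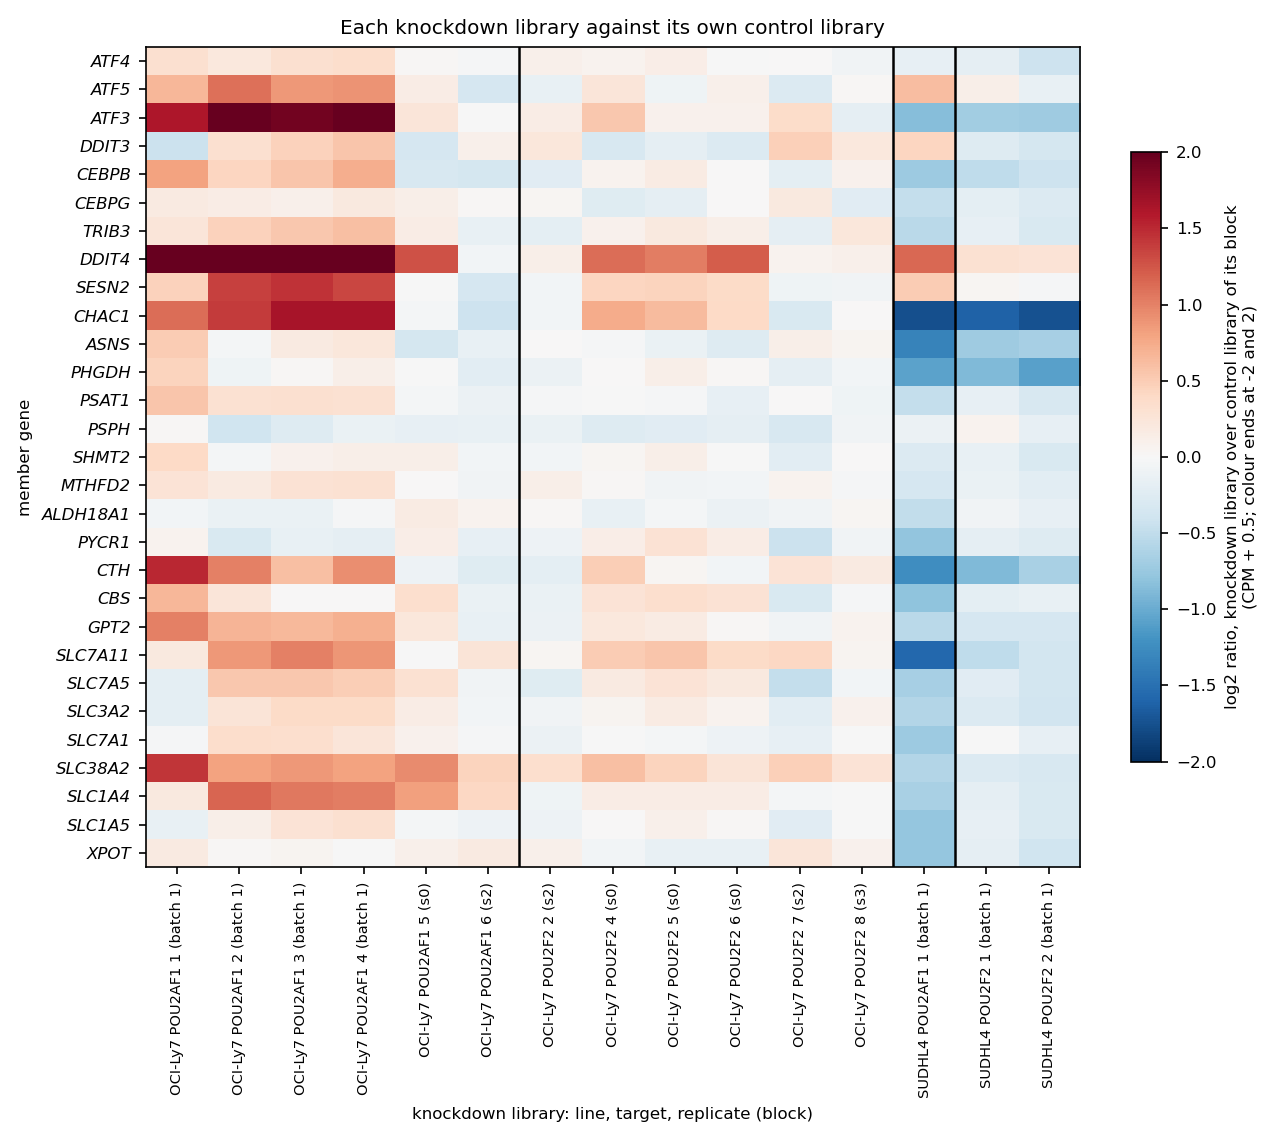
Log2 ratio of each member (rows, ordered by role) in each knockdown library (columns) over the control library of the same line and block, on CPM plus 0.5; red is higher and blue lower in the knockdown, and colours end at -2 and 2. The SUDHL4 columns are mostly blue, the 4 batch 1 columns of the OCI-Ly7 POU2AF1 knockdown mostly red, and the batch 2 columns of OCI-Ly7 pale; the POU2F2 knockdown replicates 1 and 3 have no control of their block and are not drawn.

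In OCI-Ly7, no member passed with batch as the only other term, and with the finer series block the transporters SLC38A2 and SLC1A4 rose after POU2AF1 knockdown. With batch as a term, 0 of 29 members passed after POU2AF1 knockdown, where 0.281% of all genes rose and 0.606% fell. In edgeR 2 members had an unadjusted p under 0.05, as did 1017 of 16001 genes. DESeq2 called 0 members, where it called 134 genes higher and 193 lower. Of the fitted log2 changes 25 of 29 were above 0, so that 13.8% of members lay below 0, against 50.8% of all genes. Their median was 0.12, against -0.00 over all genes. Batch 2 alone did not show this lean, with 13 members above 0 and 16 below. There 55.2% of members lay below 0, against 48.4% of all genes, and the median of the members was -0.02. With the series as a block, which compares libraries within batch 1, s0, s2 and s3, 2 members rose and 0 fell, where 2.49% of all genes rose and 3.09% fell.

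SLC38A2 was higher in each of the 3 blocks that hold a POU2AF1 knockdown library: batch 1, s0 and s2. It had 157, 101, 106 and 101 CPM after POU2AF1 knockdown in batch 1, against 57.7 in that batch's control. It had 91.7 CPM against 47.4 in s0 and 102 against 75.3 in s2. It was thus higher in 6 of 6 knockdown libraries than in the control of their block. These libraries share the controls of the 3 blocks and are not 6 separate agreements, and CEBPG was likewise higher in 6 of 6. The log2 change of SLC38A2 was 0.82 ± 0.15 (edgeR with series block, adjusted p = 0.0038). Without POU2AF1 knockdown replicate 1, the library with the high mitochondrial share, the change was 0.75 (adjusted p = 6.1e-05). Without the batch 1 control the call was lost at a log2 change of 0.69 (adjusted p = 0.13), and with batch as a term it was 0.70 ± 0.30 (adjusted p = 0.63).

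SLC1A4 had 52.2, 102, 95.4 and 92.5 CPM in the batch 1 POU2AF1 knockdown, against 45.5, then 117 against 65.9 in s0 and 37.6 against 28.1 in s2. It too was higher in 6 of 6 libraries, set against the same shared controls (log2 0.75 ± 0.17, edgeR with series block, adjusted p = 0.013). The call was lost without the batch 1 control (adjusted p = 0.26) and without POU2AF1 knockdown replicate 5 (adjusted p = 0.073). Pooled over blocks, the groups overlap: SLC1A4 spanned 37.6 to 117 CPM in the knockdown and 25.2 to 65.9 CPM in controls.

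**Figure D4:**
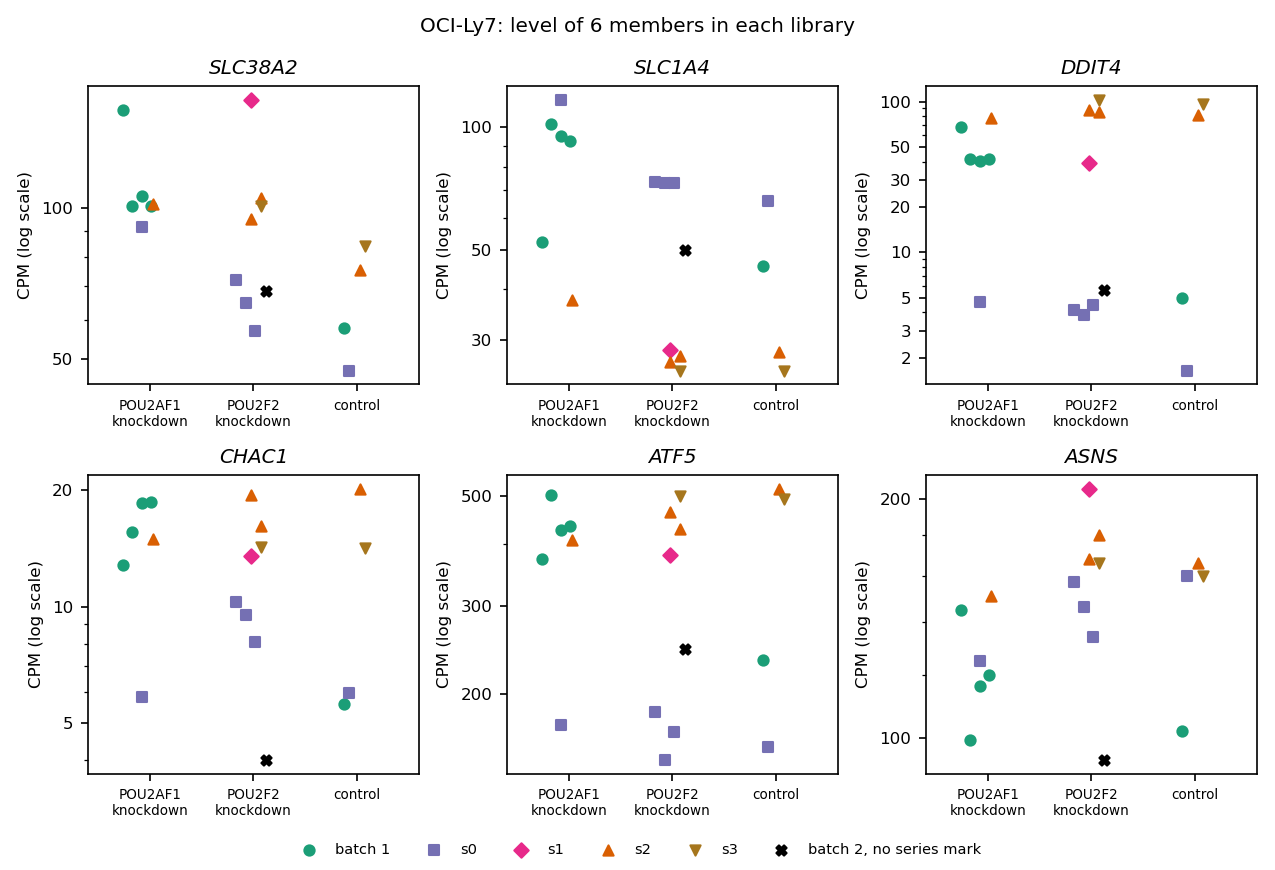
CPM (log axis) of 6 members in each OCI-Ly7 library, by group and, in colour and marker shape, by batch or series. SLC38A2 lies higher in the POU2AF1 knockdown than in the control of the same colour throughout, whereas DDIT4 controls lie at 1.64 CPM in s0 and 5.02 in batch 1 but at 80.9 and 96.1 CPM in s2 and s3.

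The stress effectors differed by block. DDIT4 had 67.7, 41.4, 40.6 and 41.4 CPM in the batch 1 POU2AF1 knockdown, against 5.02 in the batch 1 control. In s0 it had 4.69 against 1.64 CPM, and in s2 78.2 against 80.9 CPM. The control libraries alone spanned 1.64 to 96.1 CPM, and the change did not pass (log2 1.46 ± 0.54 with series block, edgeR adjusted p = 0.18). CHAC1 had 12.8, 15.6, 18.6 and 18.7 CPM in the batch 1 knockdown against 5.60, but 5.83 against 5.99 in s0 and 15 against 20.2 in s2. Over the 29 members, the median log2 ratio to the block's control was 0.32 to 0.39 in the 4 batch 1 libraries, 0.10 in s0 and -0.08 in s2. Batch 1 alone has 1 control library, so its changes are given without a test: DDIT4 had log2 3.28 ± 0.40 and ATF3 2.91 ± 0.46. The median over members there was 0.33, against 0.03 over all genes. Batch 2 alone had 0 members with an unadjusted p under 0.05 in edgeR, where 487 of 16296 genes had one.

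ATF4 and its defining targets did not pass the test in OCI-Ly7. ATF4 had 462 to 622 CPM in the POU2AF1 knockdown (median 504), against 398, 611, 624 and 618 CPM in controls, with the batch 1 control the lowest (log2 0.13 ± 0.18, edgeR adjusted p = 1). ASNS had 99.4 to 151 CPM (median 123), against 102, 160, 166 and 160 CPM (-0.04 ± 0.19). DDIT3 had 7.18 to 17.2 CPM, against 9.84 to 17.3 CPM, and TRIB3 62.3 to 109 CPM, against 55.9 to 78.2 CPM (0.17 ± 0.20). In each of these the knockdown and control ranges overlap. Among the transporters, SLC7A11 (0.43 ± 0.21, edgeR adjusted p = 0.81) and SLC7A1 (0.14 ± 0.10, adjusted p = 1) did not pass.

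After POU2F2 knockdown in OCI-Ly7, 0 members passed with batch as a term and 0 with the series block. The first fit called 0% of all genes in either direction, with 283 at an unadjusted p under 0.05 and 5 called by DESeq2. It thus did not call POU2F2 itself, at 55.7 to 148 CPM in the knockdown against 207 to 407 in controls. A member that did not pass in that fit is therefore not shown to be unchanged. With the series block 0.05% of all genes rose and 0.0312% fell. One member had an unadjusted p under 0.05 in the batch fit, SLC7A11 (log2 0.43 ± 0.18, edgeR adjusted p = 1). With the series block 3 members had one, as did 1247 of 16001 genes. SLC38A2, set against the same s0 and s2 control libraries as in the POU2AF1 comparison, had 72.0, 64.9 and 57.0 CPM in s0 against 47.4, 95.3 and 105 in s2 against 75.3, and 101 in s3 against 84.0. It was higher in 6 of 6 libraries with a control of their block, at 0.44 ± 0.14 with an adjusted p of 0.38 (edgeR, series block). These libraries share the s0, s2 and s3 controls and are not 6 separate agreements. By the same tally DDIT4 and SLC7A11 were higher in 6 of 6, and PSPH and SLC7A1 lower in 6 of 6. Without POU2AF1 knockdown replicate 1, SLC38A2 passed in the series block fit, at 0.41 with an edgeR adjusted p of 0.037. CEBPB (0.50 ± 0.33), ATF3 (1.19 ± 0.84), ATF4 (0.08 ± 0.15), DDIT3 (0.42 ± 0.40), ASNS (0.02 ± 0.17), TRIB3 (0.18 ± 0.17) and CHAC1 (0.06 ± 0.41) did not pass with batch as a term. Without POU2F2 knockdown replicate 3, the library near batch 1, 0 members passed in either fit.

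POU2F2 knockdown replicate 1, the only library of s1, has no control of its series and stood above the other 7 in several members. It had 53.4 CPM of DDIT3, against 10.6 to 22.5 CPM in the others, 13.4 CPM of ATF3, against 0.416 to 2.51 CPM, and 868 CPM of ATF4, where the others reached 668 CPM. Its ASNS was also the highest, at 206 CPM.

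The difference between the lines was tested as such for each knockdown. For POU2AF1 the SUDHL4 side is 1 knockdown and 1 control library, and the spread comes mainly from OCI-Ly7. The lines were also kept in different media, so line and medium cannot be told apart. For POU2AF1, SLC7A11 passed in the fit of all libraries, with a response higher in OCI-Ly7 by log2 2.05 ± 0.44 (edgeR, adjusted p = 0.031); 0.143% of all genes passed higher and 0.655% lower. It had 15.2 to 33.3 CPM in OCI-Ly7 POU2AF1 knockdown and 14.6 to 17.5 CPM in OCI-Ly7 controls, beside the 9.39 and 29 CPM of SUDHL4. The call was lost without the OCI-Ly7 batch 1 control (1.82, adjusted p = 0.1) and without POU2AF1 knockdown replicate 6 (2.005, adjusted p = 0.056), and in batch 1 alone (2.38, adjusted p = 0.069). With the series block, 14 members passed, all with the higher response in OCI-Ly7, where 5.04% of all genes were higher and 5.28% lower. ASNS (1.30 ± 0.24, adjusted p = 0.0027), SLC38A2 (1.40 ± 0.31, adjusted p = 0.0082), SLC1A4 (1.40 ± 0.34, adjusted p = 0.014), SLC7A1, SLC1A5, XPOT, ALDH18A1, PYCR1, CBS, GPT2, TRIB3, CHAC1 and, with the limit on its reads given above, PHGDH were the others beside SLC7A11. In the fit of all libraries without series, PHGDH (3.11 ± 0.78, adjusted p = 0.073), SLC7A1 (0.87 ± 0.22, adjusted p = 0.077), ASNS (1.29 ± 0.41, adjusted p = 0.18), ATF4 (0.29 ± 0.38), DDIT3 (-0.43 ± 0.94) and TRIB3 (0.70 ± 0.41) did not pass.

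For POU2F2, 0 members differed in response between the lines in the fit of all libraries, where 0.0106% of all genes were higher and 0% lower. There 3 members had an unadjusted p under 0.05, as did 474 of 18918 genes. With the series block the 1 member past the threshold was PHGDH (2.6 ± 0.49), where 0.0634% of all genes were higher and 0.159% lower. Its SUDHL4 side rests on 7 and 3 reads in the POU2F2 knockdown, against 34 in the control, so it supports no difference between the lines. CHAC1 had 3.02 ± 0.65 there with an adjusted p of 0.089.

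Genes linked to the response were counted in the same fits. The lists were drawn up with earlier results of these data known, so the values of their genes are descriptions and no independent support. For each list the counts in the SUDHL4 POU2AF1 knockdown stand beside 18.8% of all genes lower and 18% higher in the fit of SUDHL4 alone, and 7.38% lower and 7.04% higher with the series block over all libraries. In the fit of all libraries without that block, 0 genes of any of these lists passed in either SUDHL4 knockdown. Of 20 cytosolic tRNA synthetases, which load amino acids onto tRNA, 10 fell and 1 rose in the SUDHL4 POU2AF1 knockdown, with a median log2 change of -0.29 against 0.01 over all genes. The alanyl enzyme AARS1 had 89.3 CPM against 157 (-0.80 ± 0.10, edgeR adjusted p = 2e-07), FARSB changed by -0.84 ± 0.10, and QARS1 rose by 0.31 ± 0.11. With the series block over all libraries, 8 of these fell and 0 rose. In the SUDHL4 POU2F2 knockdown AARS1 and CARS1 fell, where 2.56% of all genes fell and 4.79% rose. In OCI-Ly7 0 of 20 passed in either knockdown and either fit, where at most 3.09% of all genes fell and 2.49% rose.

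Of 16 genes of eIF2 and its regulators, 5 fell and 4 rose in the SUDHL4 POU2AF1 knockdown. EIF2AK4, which encodes the amino acid sensing kinase GCN2, had 67.4 CPM in the POU2AF1 knockdown, 93.4 and 98.3 in the POU2F2 knockdown and 132 in the control (POU2AF1 knockdown -0.95 ± 0.10, edgeR adjusted p = 6.5e-09). PPP1R15A (GADD34), which helps dephosphorylate eIF2, had 28 CPM against 19.9 (0.51 ± 0.13). With the series block over all libraries, EIF2AK4 and EIF2B3 of this list fell and 0 rose.

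Among 13 tested genes reported as further ATF4 or CHOP targets, 6 fell and 3 rose in the SUDHL4 POU2AF1 knockdown. EIF4EBP1, the translation repressor 4E-BP1, had 44.0 CPM against 77.5 (-0.80 ± 0.11), and MAP1LC3B, an autophagy protein, rose by 0.76 ± 0.11. With the series block 2 of them fell and 1 rose. One-carbon and linked enzymes had 9 lower and 2 higher of 18, with MTHFD1 at -0.97 ± 0.15, and 8 lower and 2 higher of 19 with the series block. The other amino acid transporters had 4 lower and 3 higher of 11, and SLC43A2, a carrier of large neutral amino acids, rose by 1.43 ± 0.12; with the series block 2 were lower and 1 higher. Genes that sense amino acids upstream of mTORC1 had 4 lower and 1 higher of 13, with SESN3 at 1.09 ± 0.11, and 2 lower and 1 higher with the series block.

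The XBP1 and ATF6 arms of the endoplasmic reticulum stress response, which share the organelle stress input with the PERK to ATF4 arm, were set beside them. In the SUDHL4 POU2AF1 knockdown XBP1 (1.77 ± 0.22) and EDEM1 rose and MANF fell (-0.73 ± 0.12), of 11 genes. In the SUDHL4 POU2F2 knockdown XBP1 (1.12 ± 0.20) and EDEM1 rose, where 4.79% of all genes rose and 2.56% fell. With the series block over all libraries 0 of the 11 passed in either SUDHL4 knockdown. In the OCI-Ly7 POU2AF1 knockdown 0 of 11 passed with batch as a term, and with the series block PDIA4 (-1.11 ± 0.13, edgeR adjusted p = 0.00012), SDF2L1, MANF and SEL1L fell, where 3.09% of all genes fell. PDIA4 also fell in the OCI-Ly7 POU2F2 knockdown with the series block (-0.79 ± 0.13, edgeR adjusted p = 0.038), where 0.0312% of all genes fell.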

How the data were processed

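The members and gene lists were chosen with earlier results of these data known. Per the submitters' processing notes, the authors trimmed reads with fastp  and quantified them with Salmon 1.5.1 on GRCh38.p13; no source used here gives the fastp version, the transcript release or the strand setting. The libraries were stranded paired-end mRNA, per the labels' protocols. The authors deposited estimated counts and TPM per transcript in 26 files of 227912 transcripts. Here 205964 transcripts were matched by identifier to 58592 genes of GENCODE 29 (98.4% to 98.9% of reads), summed per gene, and the estimated counts rounded. Deposited TPM were summed per gene and used to give levels of members and markers, also across libraries and lines, without TMM scaling. All tests used the estimated counts.

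Files that differed by about the sampling noise (OCI-Ly7 control 1 and 2, SUDHL4 control 1 and 2, SUDHL4 POU2AF1 knockdown 1 and 2) were merged and counted as 1 sample each, and OCI-Ly7 control 3, which equals the sum of 1 and 2 within 2 reads for 92.9% of 26871 genes, was dropped, leaving 22 libraries. Each line was fitted with edgeR 4.0.16 (TMM scaling, genes kept by filterByExpr at min.count 10, quasi-likelihood test with robust priors), OCI-Ly7 with batch as a term, on 16001 genes in OCI-Ly7 and 16973 in SUDHL4; a call was a p below 0.05 after Benjamini-Hochberg adjustment across every gene tested. Line differences used 1 fit of 22 libraries with batch (18918 genes). The series block replaces the batches by batch 1, each series and POU2F2 knockdown replicate 3 alone. Group changes are log2 fold changes with SE. The fits of each line alone were tried on simulated counts. These had no batch or series differences and, for OCI-Ly7, less spread than the batch fit of the data. They therefore do not check the series block or the fit of all libraries. DESeq2 1.42.0, other normalisation, no filter, unmerged files, a replicate block and leaving out libraries were tried as well. The named members were those called in each comparison by rising p, up to 8, filled to 4 where fewer were called, with ATF4, DDIT3, ASNS, TRIB3 and CHAC1 always named, the members whose call differed with the series block or the fit of all libraries, and other values given to account for every member.

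Without a stated strand setting, a gene and an antisense partner cannot be told apart.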

Additional observations from a re-analysis of the deposited data

Results flagged for a closer look

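Of 87 member and group combinations of 4 to 10 libraries, 10 held 1 library far from the others, and chance alone gives about 1 in 20. In OCI-Ly7 POU2AF1 knockdown replicate 1, PSAT1 had 168 CPM, against 133 to 144 in the other libraries of its group, SLC38A2 had 157 CPM, against 91.7 to 106, and PYCR1 had 149 CPM, against 114 to 127. In OCI-Ly7 POU2F2 knockdown replicate 1, DDIT3 had 53.4 CPM, against 10.6 to 22.5, TRIB3 had 114, against 59.6 to 82.7, ATF3 had 13.4, against 0.416 to 2.51, and SLC38A2 had 165, against 57.0 to 105. In OCI-Ly7 control replicate 1, the only batch 1 control, ASNS had 102 CPM, against 160 to 166, ATF4 had 398, against 611 to 624, and SLC1A5 had 204, against 175 to 179.

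The response of SLC7A11 to POU2AF1 knockdown was called as differing between the lines in the fit of all libraries, by log2 2.05 higher in OCI-Ly7 than in SUDHL4. That call was lost without the OCI-Ly7 batch 1 control, without OCI-Ly7 POU2AF1 knockdown replicate 6 and in batch 1 alone. Its SUDHL4 side is 1 knockdown library and 1 control library.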

How the results depend on the processing

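In OCI-Ly7 the POU2AF1 knockdown had 0 members called higher with batch as a term and with any 1 library left out. It had 2 with the series block, also with POU2F2 knockdown replicate 3 placed in batch 1, and 0 to 4 when libraries were left out of that fit. Samples with the same replicate number had correlated deviations of -0.752 to 0.718 over 8 pairs (median 0.31). The median was -0.267 over 70 other pairs and 0.714 over 13 pairs of the same series. POU2AF1 knockdown replicates 5 and 6, the only 2 of their group in batch 2, had mirrored values, so -0.752 mirrors the 0.752 of another pair. Other pairs of the same number were also below 0, at -0.217 and -0.503. Since not every pair was above 0.1, the numbers were not taken to pair the samples. With a replicate block beside batch, 1 member was called higher (SLC38A2, log2 1.57, edgeR adjusted p = 0.0052), 0 for POU2F2, and SLC1A4 (-0.21) and ASNS (0.36) changed sign. SUDHL4 leaves no residual degrees of freedom for such a block.

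Apart from SLC1A4, called with the series block, changes of sign occurred in members with no call in either OCI-Ly7 fit. In the OCI-Ly7 POU2AF1 knockdown ASNS was 0.0266 with every file as a sample, 0.0249 with replicate 3 in batch 1 and 0.26 in batch 1 alone. Without the batch term ATF4 was -0.0709 and DDIT3 -0.16, and in batch 2 alone DDIT3 was -0.14, TRIB3 -0.0181 and CHAC1 -0.35. With 1 library left out the ranges were -0.21 to 0.0777 for ASNS, -0.14 to 0.23 for DDIT3, -0.0206 to 0.28 for TRIB3 and -0.35 to 0.88 for CHAC1. Leaving libraries out of the series block gave ASNS 0.0508, 0.0203 and 0.0457 (without POU2AF1 knockdown replicates 5 and 6 and control replicate 7), and ATF4 -0.0099, DDIT3 -0.0818 and CHAC1 -0.29 without control replicate 1. In the POU2F2 knockdown CEBPB was -0.15 without the batch term, ASNS -0.004 with replicate 3 in batch 1 and -0.0331 in batch 2 alone, and CHAC1 -0.16 in batch 2 alone. With 1 library left out ATF4 ranged over -0.0018 to 0.18, ASNS over -0.0484 to 0.11 and CHAC1 over -0.16 to 0.54, and with the series block 0 to 1 member was called. Between control lines DDIT3 was -0.0024 in batch 1 alone. The cause was not tested.

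In SUDHL4 the POU2AF1 counts of 4 higher and 22 lower were 0 and 2 over all libraries, 0 and 10 with series, and 0 and 1 without either POU2F2 knockdown library. The POU2F2 counts of 1 and 7 were 0 and 1 in DESeq2, 0 higher with RLE, 21 lower with every file as a sample, 0 and 0 over all libraries, also without either POU2F2 knockdown library, and 0 and 1 with series; in SUDHL4 alone without the POU2AF1 knockdown library they were 1 and 8. Line differences for POU2AF1 numbered 1, against 14 with series, 2 in batch 1 alone (SLC7A11 not among them) and 0 to 2 with libraries left out; for POU2F2 they numbered 0, and 1 with series. Between controls 7 members were called, 16 with series, 4 without a filter and 5 to 8 with libraries left out. Low read numbers limit PHGDH, ATF3 and CHAC1 in SUDHL4. The fit with every file as a sample takes files that differ by about the sampling noise as separate samples. The number of all genes called also moves with the fit, so the counts in this section describe the fits. They are no result about the members.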

Other observations

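The OCI-Ly7 control libraries differed among themselves. Over the 4 of them, 10 of 29 tested members (34.5%) spanned more than 2-fold, against 39.6% of all tested genes, and 14 (48.3%) were higher in both s2 and s3 than in batch 1 and s0, against 33% of all genes. ATF5 had 171 and 129 TPM in batch 1 and s0 and 431 and 419 TPM in s2 and s3.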
